A study of Caenorhabditis elegans with 18 samples.

Results

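The nlp genes of Caenorhabditis elegans, named for neuropeptide-like proteins, were followed through starvation and refeeding of first-stage larvae in 3 genotypes. Their members were the rows of the gene table whose WormBase name is nlp followed by a hyphen and a number, and 71 of the 46904 genes in the table met that rule. Of the 71, 65 had enough counts to be tested, 4 (nlp-4, nlp-23, nlp-45 and nlp-48) were counted at too few reads, and nlp-22 and nlp-39 had 0 counts in all 18 libraries. The 6 members nlp-29 to nlp-34, known from the epidermis, and the neighbouring names nlp-24 to nlp-28 are given separately from the other 60 members, of which 54 were tested.

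Whole-larva RNA was sequenced in 6 groups of 3 libraries. The genotypes were the wild type strain N2 and the single mutants raga-1(ok386) and rsks-1(ok1255), and each was taken either starved or fed. Eggs from cultures kept at 20 °C spent 24 h in M9 buffer, where the larvae hatched and arrested without food, and the fed groups then had 4 h on plates with OP50 bacteria. The product of raga-1 is the Rag GTPase RagA, through which amino acids switch on the growth kinase TORC1, and that of rsks-1 is S6 kinase, a target of TORC1; each mutation is carried in all cells of the animal. Nothing in the labels says that the 3 libraries of a group stem from separate cultures, and p-values here measure only the spread between these libraries, which may be technical.

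Neuropeptide precursors enter the secretory pathway, are cut by proprotein convertases at pairs of basic residues, trimmed by a carboxypeptidase and often amidated, and the short peptides are released from dense core vesicles to act on G protein-coupled receptors. In the worm the insulin-like, FMRFamide-like (flp) and neuropeptide-like (nlp) genes are the usual classes, the last being a mixed one defined by exclusion. Most nlp genes are expressed in neurons, where their peptides tune locomotion, egg laying, feeding, olfactory responses and sleep. A subset including nlp-29 encodes short peptides rich in glycine and aromatic residues that the epidermis makes as antimicrobial peptides after fungal infection or wounding, under a p38 MAP kinase pathway.

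The libraries held 9929323 to 18539402 counts. The mutated genes followed the labels: raga-1 had 0 counts in every raga-1 library and 50.1 ± 1 CPM in starved N2 (mean ± SD, n = 3 libraries, as for all such values), and rsks-1 stood at 37.6 ± 3.69 CPM in starved rsks-1 larvae against 186 ± 9.39 in starved N2. CPM (counts set to a common library size after TMM scaling, which assumes that up and down changes balance) is the unit of all levels. Feeding changed most genes, so counts are to be read against the share of all 14073 tested genes that passed in the same direction, given with each comparison. When libraries were scaled by their totals alone, the median log2 change of all genes on feeding in N2 went from -0.07 to -0.37, that in raga-1 from -0.05 to -0.15 and that in rsks-1 from -0.02 to -0.22.

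The members lie on all 6 chromosomes, with 19 on X and 18 on V (WBcel235 annotation). A run of 6 members, in the order nlp-34, nlp-31, nlp-30, nlp-29, nlp-28 and nlp-27, sit together on chromosome V between positions 3978825 and 3989770, a stretch of 10946 bp. On X, nlp-45, nlp-22, nlp-23 and nlp-2 lie between 2337600 and 2344766, and of these only nlp-2 was counted highly enough to be tested. Exons of 13 members overlap exons of another gene, among them nlp-24, nlp-26, nlp-36 and nlp-41, and whether the counting used strand is not given in the sources used here.

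Compared per kilobase of transcript, nlp-49 was the most abundant member in each of the 6 groups, at 834 CPM per kb in starved and 424 CPM per kb in fed N2. NLP-49 peptides promote arousal through the receptor SEB-3. After it, by the mean over the groups, came nlp-18 at 429 CPM per kb, nlp-40 at 361, nlp-12 at 335, nlp-80 at 232 and nlp-55 at 231. The order was not the same in all genotypes. In starved larvae nlp-24 stood in 27th place of the members in N2 and 25th in rsks-1, but in 2nd place in raga-1, with 85 CPM per kb in N2 and 600 CPM per kb in raga-1. Summed over the 71 members, nlp transcripts made up 0.421 ± 0.00504% of all counts in starved N2 and 0.179 ± 0.00507% in fed N2. For raga-1 the shares were 0.490 ± 0.0116% starved and 0.347 ± 0.0134% fed, and for rsks-1 they were 0.478 ± 0.00582% starved and 0.302 ± 0.00599% fed.

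Feeding lowered most nlp transcripts in wild type larvae. Of the 65 tested members, 55 fell in N2 and 4 rose (edgeR quasi-likelihood test, Benjamini-Hochberg adjusted p below 0.05), where 37.4% of all tested genes fell and 36.5% rose. The median log2 change of the members was -1.12, against -0.07 for all genes. Among the 54 tested members outside nlp-24 to nlp-34, 47 fell and 2 rose. The summed level of the 60 members outside that range was 3772.3 to 3925.9 CPM in starved and 1971.6 to 2096.4 CPM in fed N2, so the groups did not overlap. In whole-larva RNA, fewer cells of a type and less RNA per cell cannot be told apart. Of 14 neuron markers, all detected, 13 also fell on feeding in N2, with a median log2 change of -0.35 and a summed level of 2809.1 ± 30.9 CPM in starved and 1814.2 ± 11.8 CPM in fed larvae. Much of that sum is egl-3, itself a neuropeptide processing gene, at 1303.1 ± 24.1 CPM starved and 611 ± 4.78 CPM fed, and without it, a split made after the values were seen, the other markers summed to 1506.0 ± 35.7 CPM and 1203.5 ± 14.6 CPM. Their part in the fall of the nlp genes was not tested.

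**Figure D1:**
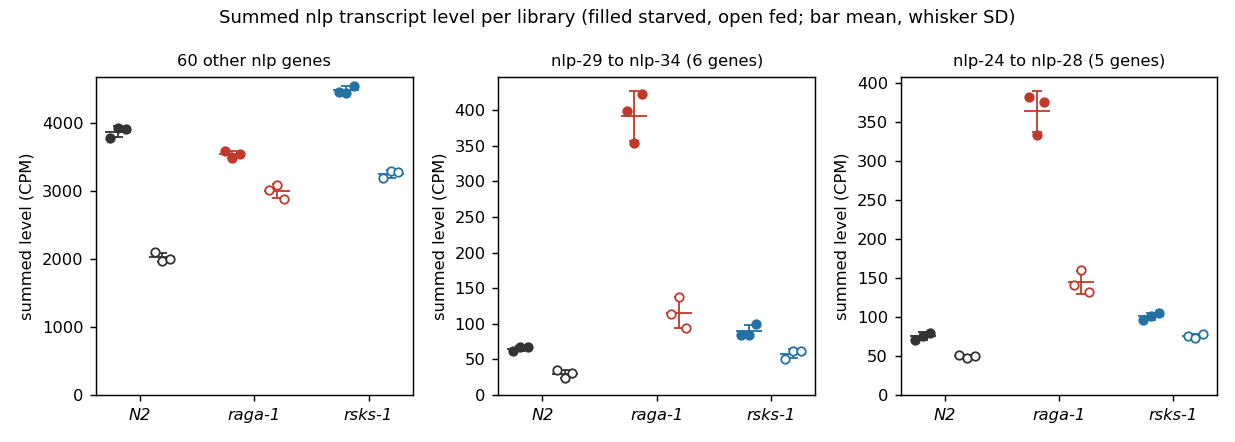
Summed CPM per library (vertical axis, linear from 0) of the 60 members outside nlp-24 to nlp-34, of nlp-29 to nlp-34 and of nlp-24 to nlp-28, by genotype; filled points are starved and open points fed libraries, with mean and SD. The 60 members averaged 3867.2 CPM starved and 2023.2 CPM fed in N2, and 3534.0 and 2998.2 CPM in raga-1, while nlp-29 to nlp-34 stood highest in starved raga-1 at a mean of 391 CPM.

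The sharpest falls in N2 outside the epidermal genes were those of nlp-2 and nlp-66. nlp-2, whose RPamide peptides act on receptors related to that of gonadotropin-releasing hormone and promote wakefulness, read 24.1, 22.6 and 22.6 CPM in the starved N2 libraries and 2.31, 1.83 and 2.83 CPM in the fed ones. Starved and fed libraries lay far apart (log2 change -3.31, SE 0.16, edgeR adjusted p = 6.3e-40). nlp-66 read 25.5, 21 and 25.1 CPM starved and 2.63, 2.97 and 3.77 CPM fed (log2 change -2.94, SE 0.15, edgeR adjusted p = 3.66e-39), again with no overlap. nlp-19 read 4.31, 4.18 and 4.04 CPM starved and 0.84, 0.114 and 1.53 CPM fed, a fall seen at low counts (log2 change -2.33, SE 0.35, edgeR adjusted p = 1.67e-09). nlp-51 read 57.6, 63.6 and 59.4 CPM starved and 12.2, 14.9 and 11.9 CPM fed (log2 change -2.21, SE 0.09, edgeR adjusted p = 1.97e-50). Between starved and fed N2, 28 of the 54 tested members outside nlp-24 to nlp-34 had a fitted fall of at least 2-fold and 0 a rise of that size. The share of all tested genes with changes of that size was not computed, so these 2-fold counts are without a background.

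A few members did not follow the fall. nlp-36 read 57.8, 65 and 64.1 CPM in starved and 110, 89.6 and 101 CPM in fed N2, and all 3 fed libraries were above the starved ones (log2 change 0.69, SE 0.10, edgeR adjusted p = 2.03e-05). It rose in both mutants too, by a log2 change of 0.53 ± 0.09 (± SE, as for all log2 values that follow) in raga-1 and of 0.71 ± 0.09 in rsks-1. nlp-16 read 41.9, 41.4 and 43.1 CPM starved and 49.5, 49.8 and 54.2 CPM fed in N2 (log2 change 0.28, SE 0.07, edgeR adjusted p = 0.000105), a rise that turned to -0.02 when libraries were scaled by their totals alone. It also rose in raga-1 (0.23 ± 0.06; 0.13 and not past the threshold with totals alone) and in rsks-1 (0.52 ± 0.06). nlp-40, made in the intestine, where its peptide times defecation through the receptor AEX-2 on neurons, read 266, 270 and 263 CPM starved and 257, 261 and 248 CPM fed in N2, a difference not past the threshold (log2 change -0.06, SE 0.04, edgeR adjusted p = 0.112); it passed with totals alone (-0.36), with relative log expression size factors (-0.08) and when fitted on the compared libraries only (-0.09). In raga-1 nlp-40 rose by 0.17 ± 0.03 (edgeR adjusted p = 1.25e-05; 0.06 and not past the threshold with totals alone), and in rsks-1 its change was 0.00 ± 0.03, not past the threshold, and -0.20 with totals alone. nlp-59 fell in N2 (-0.40 ± 0.08) and rose in raga-1 (0.26 ± 0.07) and in rsks-1 (0.31 ± 0.07); with totals alone neither rise passed (0.16 and 0.11). The changes of nlp-63 and nlp-67 in N2 were 0.04 ± 0.34 and -0.10 ± 0.18, neither past the threshold, although with totals alone that of nlp-67 was -0.40 and passed (edgeR adjusted p = 0.0386), and nlp-63 rose in rsks-1 by 1.23 ± 0.27.

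Several members with a known role in behaviour or hormone signalling fell in N2. nlp-12, a cholecystokinin-like gene of the stretch-sensing neuron DVA, read 199, 206 and 214 CPM in starved and 78.7, 78.2 and 67.3 CPM in fed N2 (log2 change -1.47, SE 0.06, edgeR adjusted p = 2.63e-23). nlp-1, whose peptide from the AWC olfactory neurons acts on the receptor NPR-11, read 76.9, 80.5 and 78 CPM starved and 35, 28.8 and 36.3 CPM fed (log2 change -1.23, SE 0.06, edgeR adjusted p = 5.8e-38). For both genes every fed library lay below every starved one. nlp-8 and nlp-14, which act in the sleep-promoting neuron ALA, followed the same direction. nlp-8 read 147, 156 and 163 CPM starved and 60.7, 58.5 and 63.3 CPM fed (log2 change -1.36, SE 0.05, edgeR adjusted p = 2.54e-53), and nlp-14 read 126, 130 and 124 CPM starved and 43, 40.2 and 42.3 CPM fed (log2 change -1.60, SE 0.05, edgeR adjusted p = 4.8e-57). The abundant nlp-49 went from 474, 514 and 513 CPM to 266, 238 and 260 CPM (log2 change -0.97, SE 0.04, edgeR adjusted p = 1.03e-40), and nlp-18 from 245, 253 and 257 CPM to 148, 139 and 142 CPM (log2 change -0.81, SE 0.04, edgeR adjusted p = 3e-43). nlp-47, a gene related to those of adipokinetic and gonadotropin-releasing hormones, fell less, with a log2 change of -0.69 ± 0.06. nlp-3, nlp-7 and nlp-9 fell by log2 changes of -0.93 ± 0.05, -1.46 ± 0.09 and -1.37 ± 0.07, and nlp-80 and nlp-55 by -0.68 ± 0.05 and -1.39 ± 0.05.

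**Figure D2:**
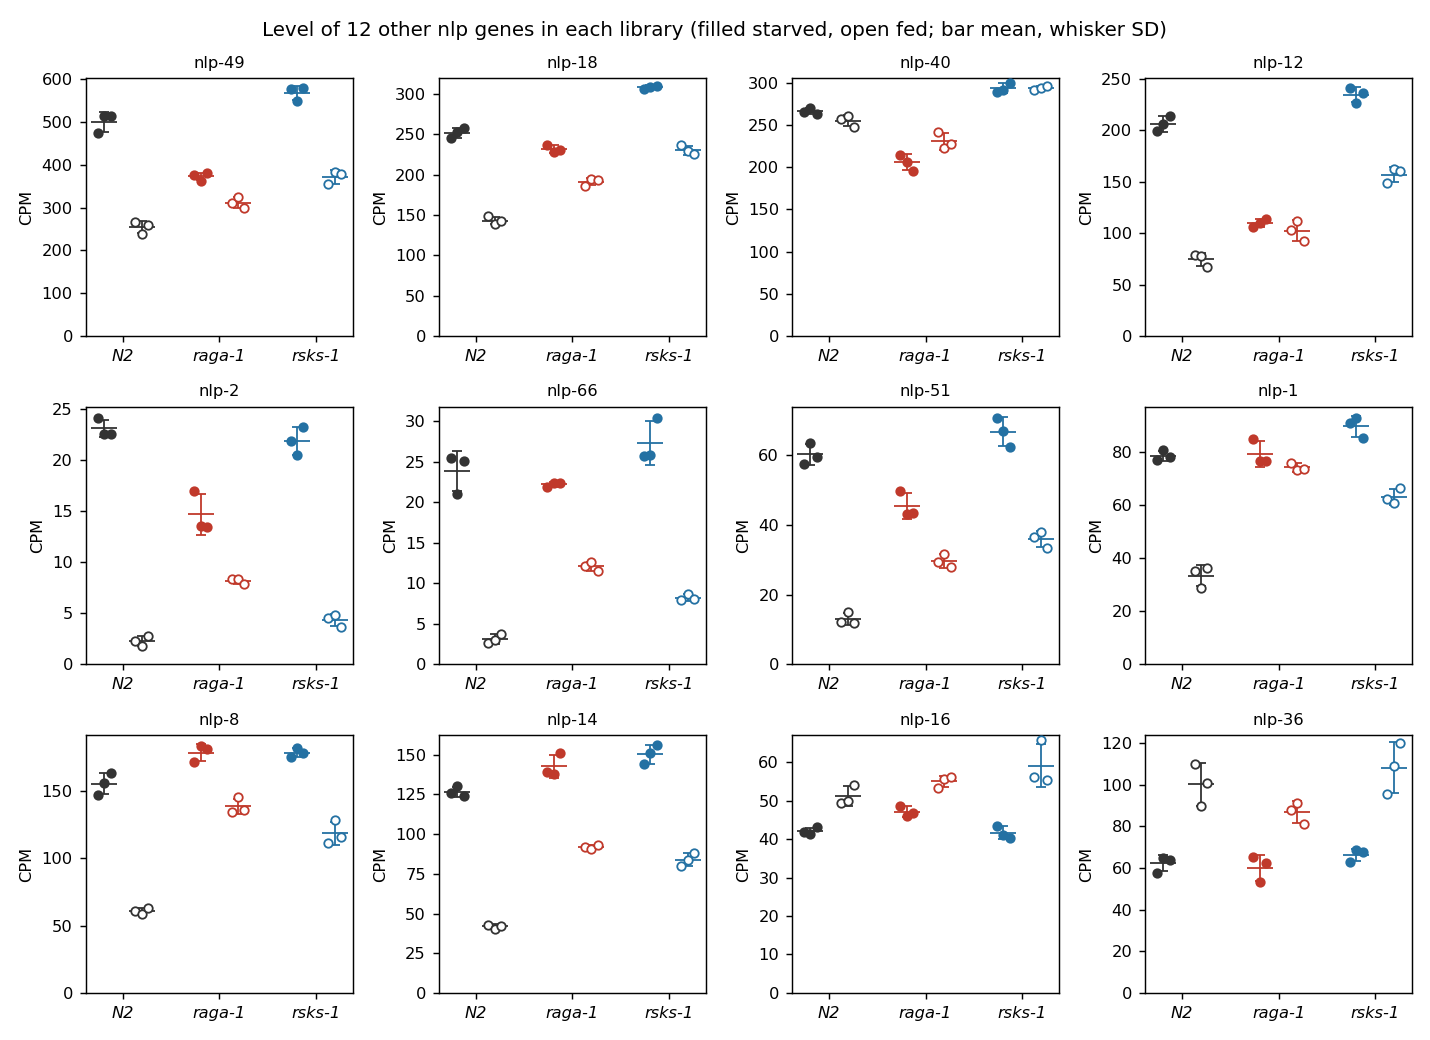
CPM per library (vertical axes, linear from 0) of 12 members outside nlp-24 to nlp-34, by genotype; filled points are starved and open points fed libraries, with mean and SD. nlp-12 and nlp-1 drop on feeding in N2 (log2 changes -1.47 and -1.23) and not past the threshold in raga-1 (-0.11 and -0.10), whereas nlp-36 rises in all 3 genotypes.

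In raga-1 the fall on feeding was smaller for most members. Of the 65 tested, 49 fell and 4 rose in raga-1, against 32.9% of all tested genes falling and 29.4% rising, and the median log2 change of the members was -0.40. The difference between the raga-1 and N2 responses was positive for 46 members and negative for 3, where 21.8% of all tested genes had a positive and 28.8% a negative difference. A weaker response gives a positive difference for a gene that falls and a negative one for a gene that rises. In N2 55 of the 65 members fell and 37.4% of all tested genes did, so these shares are not a like background. Of the 55 members that fell in N2, 44 also fell in raga-1, 10 did not pass the threshold and nlp-59 rose. 52 of the 55 had a log2 change of smaller size in raga-1 than in N2, and for 45 the positive difference itself passed the threshold. The 55 were picked by their fall in the same N2 libraries, which favours a smaller change in another genotype. The share among all genes that fell in N2 was not computed, so whether these counts are particular to the members cannot be said. All 14 neuron markers fell on feeding in raga-1 as well, with a median log2 change of -0.18 and a summed level of 2993.1 ± 29.2 CPM starved and 2442.9 ± 18 CPM fed (1757.6 ± 8.52 and 1548.1 ± 15.1 CPM without egl-3), and their part was not tested.

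nlp-12 and nlp-1 were among the 10. nlp-12 read 106, 110 and 114 CPM in starved and 103, 112 and 91.9 CPM in fed raga-1, groups that overlapped (log2 change -0.11, SE 0.05, edgeR adjusted p = 0.0787). The response differed from that of N2 by 1.36 ± 0.08 (edgeR adjusted p = 1.47e-17). The starved raga-1 level of nlp-12 was itself below that of starved N2, by a log2 difference of -0.91 ± 0.05, and with totals alone its log2 change on feeding was -0.21 and past the threshold. nlp-1 read 84.9, 76.5 and 76.5 CPM starved and 75.9, 73.1 and 73.4 CPM fed in raga-1 (log2 change -0.10, SE 0.05, edgeR adjusted p = 0.102), from a starved level near that of N2. Its difference from the N2 response was 1.14 ± 0.08 (edgeR adjusted p = 2.99e-25). nlp-80 read 129, 124 and 127 CPM starved and 127, 125 and 123 CPM fed in raga-1 (log2 change -0.02, SE 0.04, edgeR adjusted p = 0.757), groups that overlapped; with totals alone its change, like that of nlp-1, passed the threshold (-0.12 and -0.20).

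nlp-2 and nlp-66 were among the members with a large positive difference. nlp-2 read 17, 13.6 and 13.5 CPM in starved and 8.41, 8.35 and 7.85 CPM in fed raga-1, and its response differed from that of N2 by 2.47 ± 0.22 (edgeR adjusted p = 6.38e-20). nlp-66 read 21.9, 22.4 and 22.4 CPM starved and 12.1, 12.7 and 11.5 CPM fed, a difference of 2.05 ± 0.19 (edgeR adjusted p = 1.78e-18). Both still fell in raga-1, so the fed libraries were below the starved ones in both genotypes. nlp-51, nlp-82 and nlp-58 had differences of 1.61 ± 0.11, 1.38 ± 0.16 and 1.30 ± 0.14. The 3 negative differences belonged to nlp-24, nlp-30 and nlp-33, which are described with the epidermal genes.

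**Figure D3:**
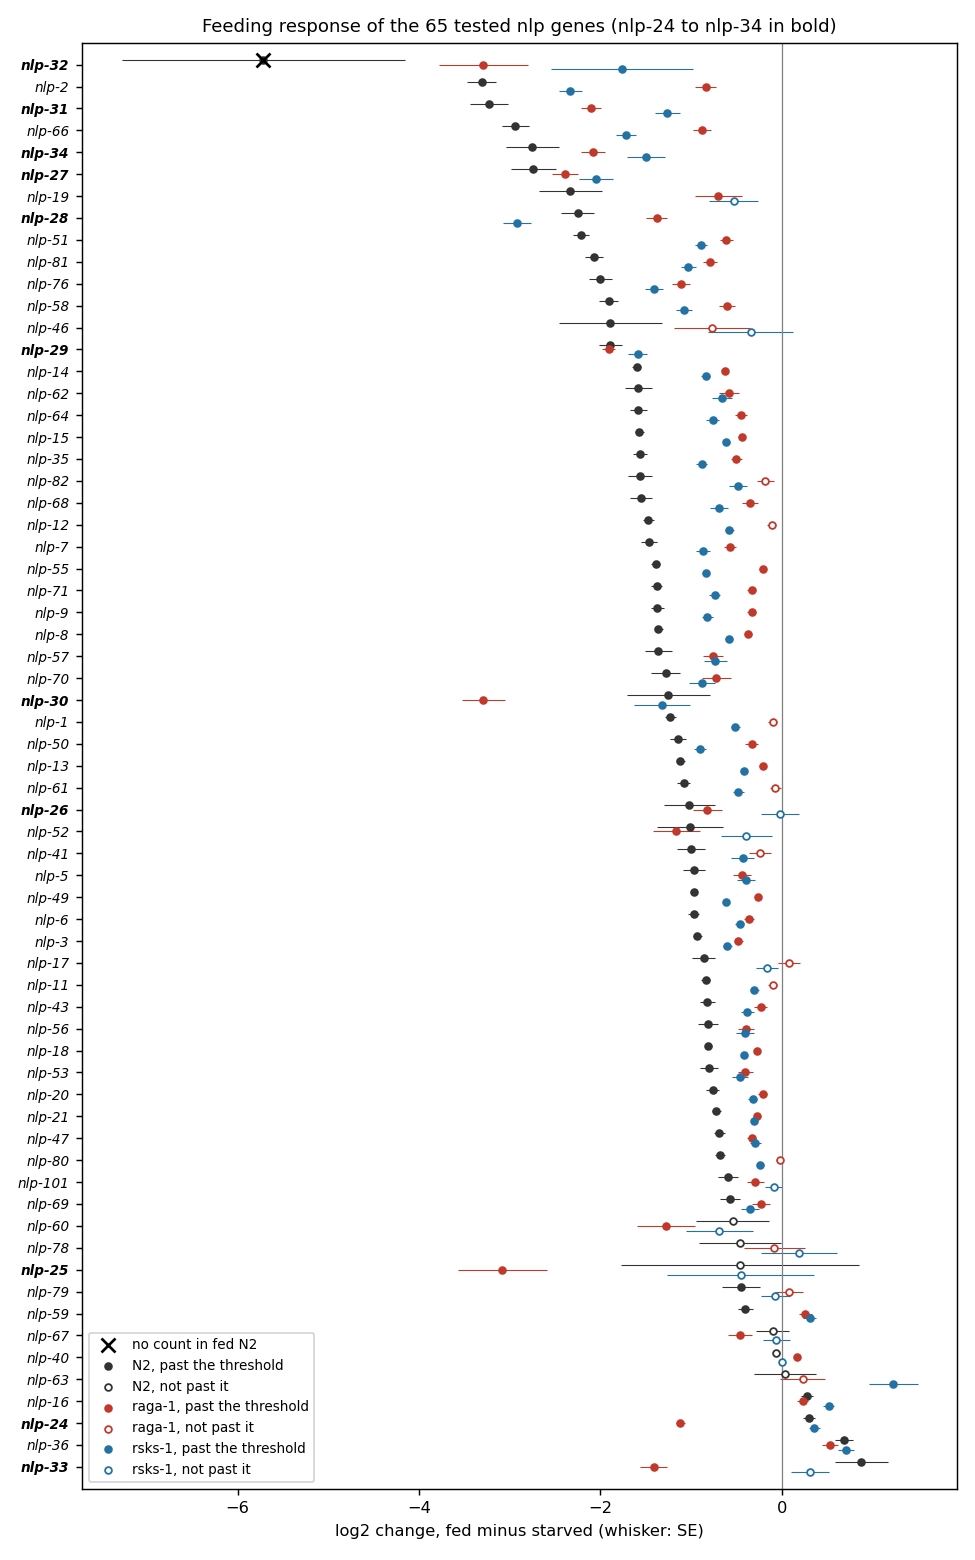
Log2 change on feeding (horizontal axis) of the 65 tested members, ordered by the change in N2, in N2 (black), raga-1 (red) and rsks-1 (blue), with SE; filled points passed the threshold, and a cross marks nlp-32 in N2, whose fitted change has no count behind it in fed larvae. Most black points lie left of the red and blue ones, but for the bold names nlp-24, nlp-25, nlp-30 and nlp-33 the red point lies far to the left of the black one.

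In rsks-1, 47 of the 65 tested members fell and 5 rose, against 35.2% of all tested genes falling and 35.7% rising, with a median log2 change of -0.51. The difference between the rsks-1 and N2 responses was positive for 44 members and negative for 0 with edgeR (0 with DESeq2, and 1 at an unadjusted p below 0.05), where the shares of all tested genes were 10.8% and 15.8%. As for raga-1, those shares are not a like background for members that mostly fell in N2. The 55 members that fell in N2 split in rsks-1 into 47 that fell, 7 that did not pass and 1 that rose. 53 of the 55 had a smaller change than in N2, a count with the same limit as that for raga-1. nlp-12 read 241, 227 and 236 CPM in starved and 149, 162 and 160 CPM in fed rsks-1 (log2 change -0.58, SE 0.05, edgeR adjusted p = 7.95e-13), a change of smaller size than in N2, and the difference was 0.89 ± 0.08. nlp-51 read 70.7, 67 and 62.4 CPM starved and 36.5, 37.9 and 33.4 CPM fed, and differed from N2 by 1.32 ± 0.11. nlp-82 and nlp-81 differed by 1.08 ± 0.16 and 1.04 ± 0.13.

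Set against each other, the raga-1 response was the more positive for 25 members and the more negative for 9 (5 without the second fed rsks-1 library), where 18.8% and 25.3% of all tested genes had such differences. Those shares too are not a like background for members that mostly fell. nlp-2 (1.49 ± 0.18) and nlp-66 (0.84 ± 0.15) fell less in raga-1 than in rsks-1, as did nlp-55 (0.63 ± 0.06), nlp-50 (0.57 ± 0.10) and nlp-9 (0.49 ± 0.08). nlp-24, nlp-25, nlp-26, nlp-29, nlp-30, nlp-31 and nlp-33 held most of the negative differences, and the other two belonged to nlp-16 (-0.29 ± 0.08) and nlp-63. That of nlp-29 (-0.31 ± 0.13) did not pass under 5 of the alternative settings, DESeq2 among them, and that of nlp-26 (-0.79 ± 0.26) did not pass with DESeq2.

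The genes known from the epidermis read highest in starved raga-1 larvae. Summed over nlp-29 to nlp-34, the 3 starved raga-1 libraries held 354 to 422 CPM against 61.3 to 67.2 CPM in starved N2 and 84.2 to 99.6 CPM in starved rsks-1. All 6 were higher in starved raga-1 than in starved N2, with a median log2 difference of 2.36, and all 6 were higher in fed raga-1 than in fed N2, where 27% and 28.9% of all tested genes were higher. Among them nlp-32 reached 10 counts in every library of a group only in starved raga-1. It was thus tested through the group where it is high, and its call there adds no support of its own. All of nlp-24 to nlp-28 were higher in the starved mutant as well, and 4 of those 5 in the fed one. The same limit holds for nlp-25, which also reached 10 counts in every library of a group only in starved raga-1. The counts with 1 library left out, given next, include both genes. Leaving out 1 library at a time kept 6 of 6 and 5 of 5 in starved larvae and left 4 to 6 of the 6 in fed ones, where the calls for nlp-30 (0.75 without the second fed N2 library, the lowest value) and nlp-32 (without the first fed raga-1 library) were lost. On feeding, 5 of the 6 fell and nlp-33 rose in N2, all 6 fell in raga-1, and 5 fell in rsks-1, where the fall of nlp-32 was lost without any one of 4 libraries; of all tested genes 37.4%, 32.9% and 35.2% fell.

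nlp-29, an antimicrobial peptide gene induced by infection and wounding, read 18.3, 19.7 and 20.9 CPM in starved and 5.99, 4.11 and 5.77 CPM in fed N2. The raga-1 libraries read 95.4, 87.8 and 92.8 CPM starved and 23.1, 27.8 and 22.7 CPM fed, and those of rsks-1 21.9, 24.4 and 25.3 CPM starved and 7.22, 8.11 and 8.32 CPM fed. The fed raga-1 libraries were thus above the starved N2 ones. Its difference between raga-1 and N2 was 2.22 ± 0.08 in starved and 2.21 ± 0.12 in fed larvae, and it fell on feeding in both, by -1.89 ± 0.13 in N2 and -1.91 ± 0.07 in raga-1, with a difference between the responses of -0.02 ± 0.18 (edgeR adjusted p = 0.953).

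nlp-31 read 26.1, 25.6 and 27.2 CPM in starved and 2.52, 3.89 and 2 CPM in fed N2 (log2 change -3.23, SE 0.21, edgeR adjusted p = 2.06e-12). In raga-1 the values were 81.1, 70 and 80.8 CPM starved and 17, 23.2 and 14.1 CPM fed (log2 change -2.10, SE 0.11, edgeR adjusted p = 9.28e-14). In rsks-1 they were 25.7, 23.6 and 27.7 CPM starved and 9.49, 11 and 11.2 CPM fed (log2 change -1.26, SE 0.14, edgeR adjusted p = 4.87e-08). Starved rsks-1 and starved N2 thus overlapped for nlp-31, and the 3 fed groups were apart, with N2 lowest. The response differed from that of N2 by 1.13 ± 0.27 in raga-1 and 1.96 ± 0.28 in rsks-1.

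nlp-34 read 3.85, 5.72 and 5.5 CPM in starved and 0.84, 0.457 and 0.942 CPM in fed N2, with 27.8, 21.5 and 28.7 CPM starved and 6.59, 5.86 and 5.98 CPM fed in raga-1 and 5.4, 4.75 and 6.68 CPM starved and 2.06, 1.82 and 2.06 CPM fed in rsks-1. It fell in all 3 genotypes, by -2.75 ± 0.29 in N2, -2.08 ± 0.13 in raga-1 and -1.50 ± 0.21 in rsks-1, and the fed raga-1 libraries read just above the starved N2 ones. nlp-30 read 2.29, 4.18 and 1.54 CPM in starved and 1.47, 0.457 and 1.41 CPM in fed N2, and 25.6, 24.6 and 21.8 CPM starved and 3.44, 2.69 and 1.29 CPM fed in raga-1. Its fall was steeper in raga-1 (-3.29 ± 0.24) than in N2 (-1.25 ± 0.46), by -2.04 ± 0.60 (edgeR adjusted p = 0.00666), but the N2 counts were low: the fall in N2 was lost without the second starved or the second fed N2 library (log2 changes -0.74 and -0.88), and the difference without the first or the third fed N2 library (-1.77 and -1.86). nlp-32 had 18 counts over the starved and 0 over the fed N2 libraries, so it was at least 4.28-fold higher starved, taking 3 counts over the group as the floor. Its starved raga-1 libraries read 3.06, 1.57 and 2.85 CPM against 0.733, 0.464 and 0.294 CPM in starved N2 (log2 difference 2.35 ± 0.45). nlp-32 was tested through starved raga-1, the group where it is high, so its call there adds no support of its own. Against fed N2, with 0 counts, fed raga-1 was at least 2.2-fold higher.

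nlp-33 went the other way on feeding in N2. It read 9.99, 10.9 and 11.7 CPM in starved and 24.4, 15.3 and 20.3 CPM in fed N2, so every fed library was above every starved one (log2 change 0.88, SE 0.29, edgeR adjusted p = 0.0163). In raga-1 it read 166, 148 and 195 CPM starved and 63.7, 78.2 and 50.5 CPM fed (log2 change -1.41, SE 0.15, edgeR adjusted p = 2.6e-06), and in rsks-1 26.7, 26.5 and 33.2 CPM starved and 29.1, 38.4 and 38.4 CPM fed (log2 change 0.31, SE 0.21, edgeR adjusted p = 0.195). The raga-1 response was more negative than that of N2 by -2.29 ± 0.33 (edgeR adjusted p = 5.67e-05). The rise in N2 did not pass with totals alone (0.58) or without the first fed N2 library (0.70). Starved raga-1 exceeded starved N2 by a log2 difference of 3.96 ± 0.21, 15.56-fold.

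nlp-24, whose peptides are opioid-like and promote feeding in starved worms through the receptor NPR-17, also rose in N2 and fell in raga-1. It read 29.1, 32.6 and 34.4 CPM in starved and 40.9, 40.5 and 37.2 CPM in fed N2 (log2 change 0.30, SE 0.07, edgeR adjusted p = 9.32e-05), a rise that turned to -0.00 with totals alone. In raga-1 it read 240, 213 and 225 CPM starved and 102, 112 and 96.9 CPM fed (log2 change -1.12, SE 0.05, edgeR adjusted p = 1.52e-41), and in rsks-1 42.6, 46.7 and 45.4 CPM starved and 60.4, 54 and 59.2 CPM fed (log2 change 0.36, SE 0.06, edgeR adjusted p = 6.41e-08). It fell in raga-1, and every raga-1 library was above every library of the other genotypes. The responses of raga-1 and N2 differed by -1.42 ± 0.09 (edgeR adjusted p = 2.25e-29) and those of raga-1 and rsks-1 by -1.48 ± 0.08.

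Of the other names in that range, nlp-27 read 22.2, 24.4 and 24.1 CPM in starved and 2.73, 2.51 and 5.42 CPM in fed N2, against 92.6, 73.1 and 97.8 CPM starved and 15.5, 20.4 and 14.7 CPM fed in raga-1. It fell in all 3 genotypes, by -2.74 ± 0.25 in N2, -2.39 ± 0.14 in raga-1 and -2.05 ± 0.19 in rsks-1. nlp-28 read 10.6, 12.6 and 12.8 CPM starved and 3.15, 2.17 and 2.24 CPM fed in N2, 22, 19.1 and 20.3 CPM starved and 8.56, 8.01 and 6.95 CPM fed in raga-1, and 17.8, 19.2 and 19.8 CPM starved and 2.99, 2.09 and 2.6 CPM fed in rsks-1. Its starved level was thus raised in both mutants, and its response in raga-1 was less negative than in rsks-1 by 1.53 ± 0.20. nlp-26 read 7.97, 6.26 and 8.37 CPM starved and 4.62, 2.17 and 4.24 CPM fed in N2, and 26.4, 25.7 and 30.7 CPM starved and 14.4, 19.9 and 12.8 CPM fed in raga-1. It fell in both and did not pass the threshold in rsks-1 (-0.02 ± 0.21). nlp-25 was near 0 except in starved raga-1, where it read 2.13, 3.15 and 1.8 CPM; its starved N2 libraries read 0, 0.0773 and 0.22 CPM.

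**Figure D4:**
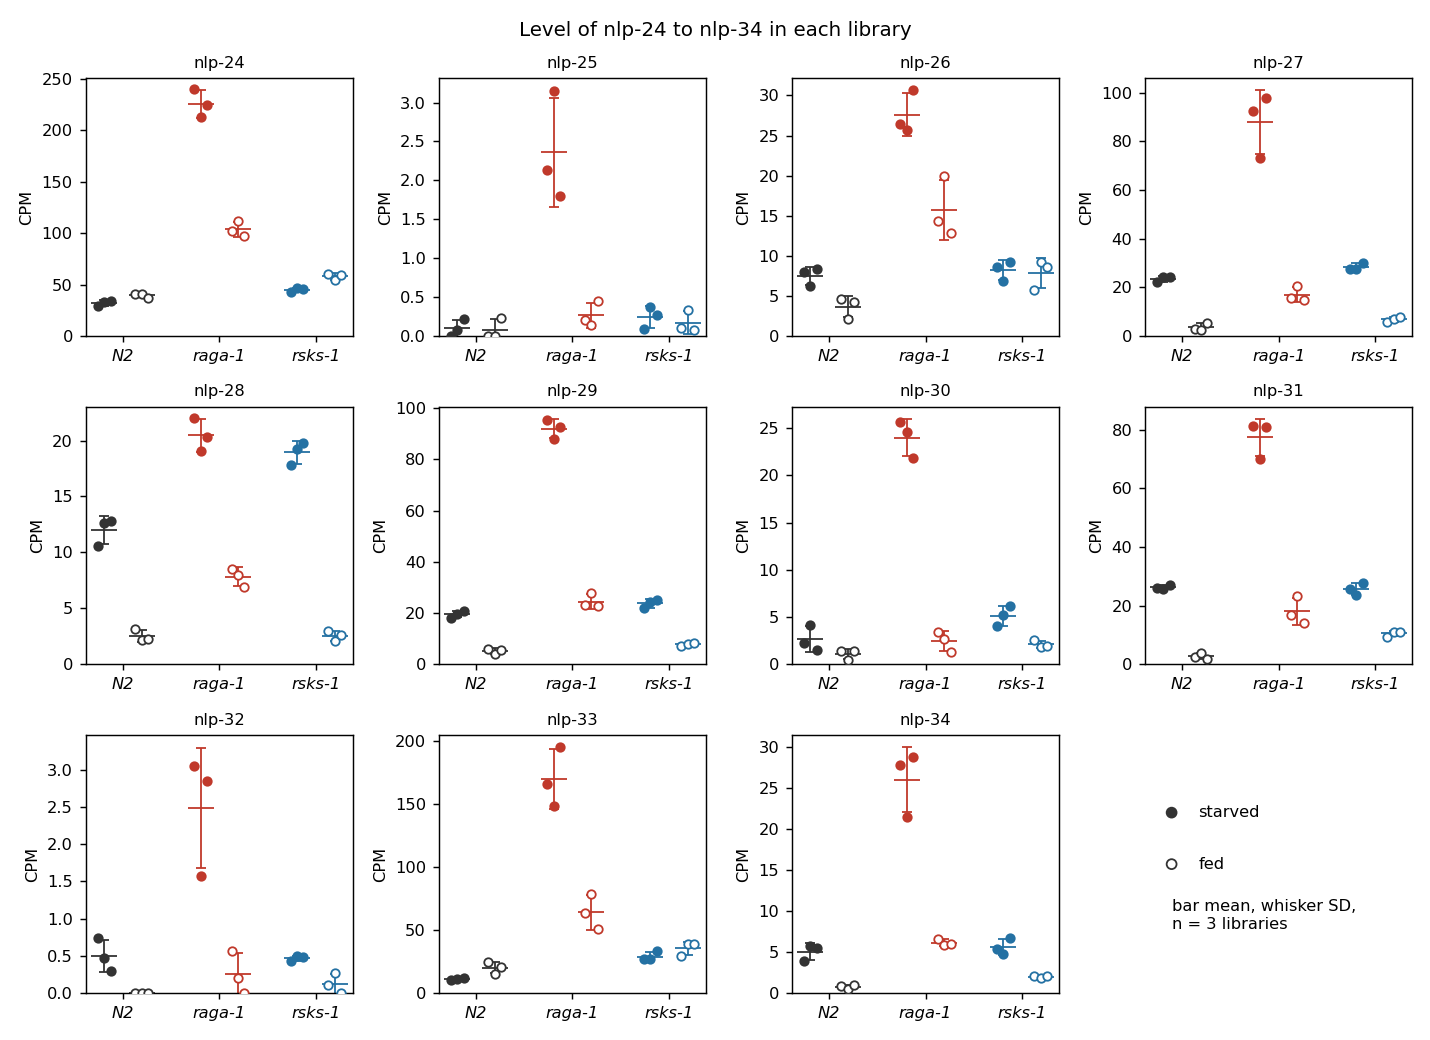
CPM per library (vertical axes, linear from 0) of nlp-24 to nlp-34, by genotype; filled points are starved and open points fed libraries, with mean and SD, n = 3. For each of the 11 genes the starved raga-1 libraries hold the highest mean, and nlp-33 and nlp-24 are the ones that rise on feeding in N2.

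More members were called different from N2 in fed than in starved larvae of either mutant. In fed raga-1, 56 of the 65 tested members were higher than in fed N2 and 1, nlp-40, was lower, where 28.9% of all tested genes were higher and 34.4% lower. In fed rsks-1, 56 were higher and 0 lower with edgeR (0 with DESeq2 and 0 at an unadjusted p below 0.05), where the shares were 17.4% and 22.6%. The median log2 differences of the members were 0.89 and 0.86. Of the 14 neuron markers, 13 were higher in fed raga-1 (median 0.36) and 7 in fed rsks-1 (median 0.11) than in fed N2, and their part was not tested. These comparisons share the fed N2 libraries with each other and with the feeding comparison in N2. The lower call for nlp-40 in raga-1 (-0.15 ± 0.04) turned to 0.17 with totals alone and did not pass when fitted on the compared libraries only (-0.08). Outside nlp-24 to nlp-34, nlp-66 had a difference of 1.96 ± 0.16 in fed raga-1, and nlp-82 and nlp-2 had 1.59 ± 0.13 and 1.82 ± 0.19; in fed rsks-1 nlp-51 had 1.47 ± 0.09 and nlp-20 1.39 ± 0.06.

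In starved larvae the calls went both ways in raga-1 and only upward in rsks-1. In starved raga-1, 28 were higher and 17 lower than in N2, where 27% of all tested genes were higher and 25.7% lower; 62.2% of the called members were thus higher, and 75.6% (34 against 11) with totals alone. The count of lower members is near the share of all genes. Outside nlp-24 to nlp-34, 17 of 54 tested members were higher and 17 lower, so that both counts are near those shares. nlp-12 had the most negative difference, reading 106, 110 and 114 CPM in starved raga-1 and 199, 206 and 214 CPM in starved N2 (log2 change -0.91, SE 0.05, edgeR adjusted p = 6.78e-18). nlp-70 (-0.89 ± 0.13), nlp-2 (-0.65 ± 0.10), nlp-81 (-0.57 ± 0.07), nlp-49 (-0.42 ± 0.03) and nlp-51 (-0.41 ± 0.06) were lower too. In starved rsks-1, 31 were higher and 0 lower with edgeR (0 with DESeq2 and 0 at an unadjusted p below 0.05), where 15.1% of all tested genes were higher and 11.9% lower, with a median of 0.19. nlp-20 was higher there, reading 105, 109 and 114 CPM in starved rsks-1 against 54, 56.6 and 58.8 CPM in starved N2 (log2 change 0.95, SE 0.05, edgeR adjusted p = 7.99e-34), and nlp-33 and nlp-30 had 1.40 ± 0.25 and 0.96 ± 0.30. The difference of nlp-30 did not pass with DESeq2 (0.95, DESeq2 adjusted p = 0.0569). It was also lost without some single libraries (0.66 without the third starved N2 library).

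**Figure D5:**
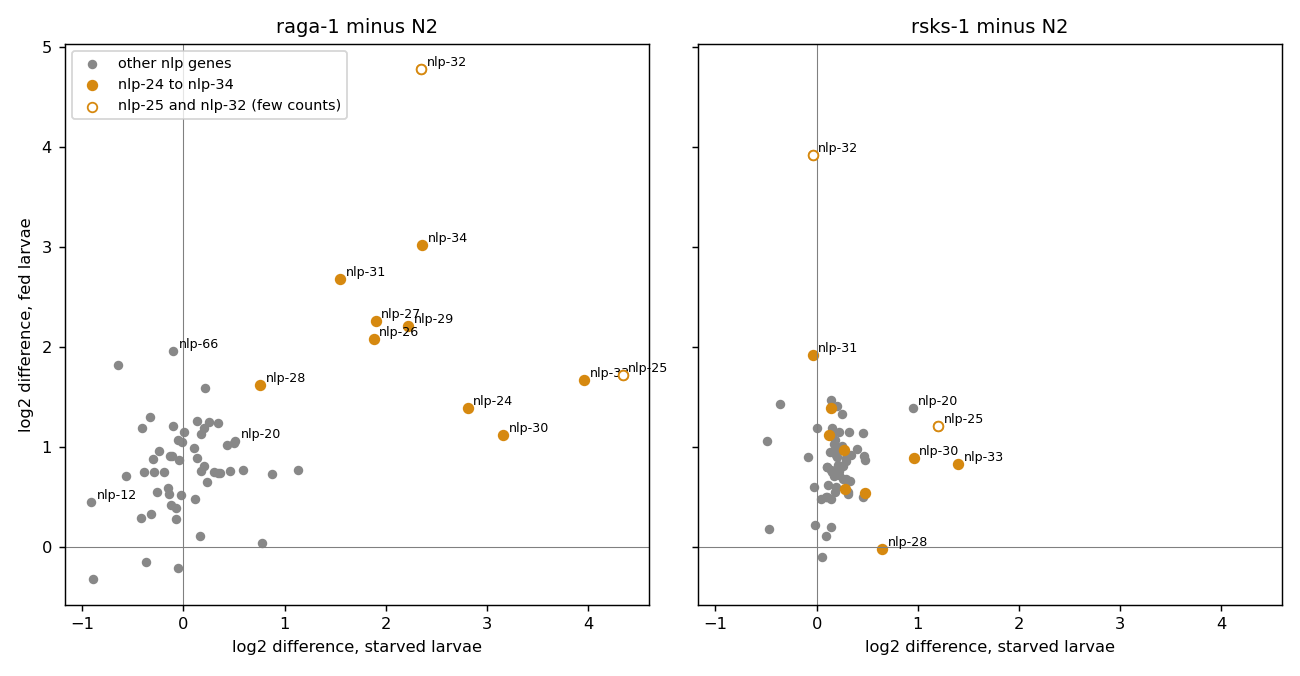
Log2 difference from N2 in starved larvae (horizontal axis) and in fed larvae (vertical axis) of the 65 tested members, for raga-1 (left) and rsks-1 (right); orange points are nlp-24 to nlp-34, with nlp-25 and nlp-32, which have few counts, drawn open. In raga-1 the orange points lie to the right, nlp-33 at 3.96 in starved larvae and nlp-12 leftmost at -0.91; in rsks-1 most points lie above 0 on the vertical axis.

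Most genes that process and release neuropeptides also fell on feeding in N2. Of 20 listed, 16 fell and 3 rose on feeding in N2, where 37.4% of all tested genes fell and 36.5% rose, with a median log2 change of -0.66. The largest changes were those of sbt-1 (-1.25 ± 0.03), a helper of the convertase, ida-1 (-1.22 ± 0.03), a dense core vesicle membrane protein, egl-3 (-1.09 ± 0.03), the main neuropeptide convertase, which is among the neuron markers too, and egl-21 (-1.04 ± 0.03), the carboxypeptidase that trims the cut peptides. egl-3 read 1304.0, 1278.6 and 1326.7 CPM in starved and 607, 616 and 609 CPM in fed N2, and 1194.2, 1245.8 and 1266.4 CPM starved and 897, 892 and 896 CPM fed in raga-1. Its fed libraries were below the starved ones in both genotypes. In raga-1, 14 of the 20 fell and 2 rose (median -0.31), where 32.9% of all tested genes fell and 29.4% rose. In rsks-1 15 fell and 2 rose (median -0.56), where the shares were 35.2% and 35.7%. In fed larvae 13 of the 20 were higher in raga-1 than in N2 and 2 were lower, where 28.9% of all tested genes were higher and 34.4% lower.

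Of 19 receptors for NLP or related peptides, 10 fell and 1 rose on feeding in N2, 11 fell in raga-1 and 7 fell in rsks-1, where 37.4%, 32.9% and 35.2% of all tested genes fell, so that the rsks-1 count is near the share of all genes. There was no rise past the threshold in either mutant (edgeR; 0 and 1 at an unadjusted p below 0.05). ckr-2, the receptor of the NLP-12 peptides, read 31.6, 29.5 and 30.6 CPM in starved and 12.3, 16.6 and 15.3 CPM in fed N2 (log2 change -1.06, SE 0.10, edgeR adjusted p = 6.68e-19). It also fell in raga-1 (-0.35 ± 0.08) and rsks-1 (-0.57 ± 0.09). npr-17 fell in raga-1 (-0.69 ± 0.16), where its ligand gene nlp-24 fell too. In starved larvae 10 of the 19 receptors were higher in raga-1 than in N2 (edgeR), with tkr-2 at 1.96 ± 0.23, gnrr-6 at 1.03 ± 0.32, ckr-1 at 0.78 ± 0.15 and npr-17 at 0.54 ± 0.16, where 27% of all tested genes were higher.

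Most regulators of the epidermal immune response fell on feeding, while in starved raga-1 they split. Of 12 listed, 11 fell on feeding in N2 (edgeR, against 37.4% of all tested genes), led by the receptor gene dcar-1 (-1.60 ± 0.07) and the STAT-like gene sta-2 (-1.13 ± 0.08). In raga-1 11 fell and 1 rose, where 32.9% of all tested genes fell and 29.4% rose. In rsks-1 8 fell, 1 rose and 3 did not pass, where the shares were 35.2% and 35.7%. In starved raga-1, 4 were higher and 5 lower than in N2, where 27% of all tested genes were higher and 25.7% lower, so that the higher count is near the share of all genes. Among the higher ones were tir-1 (0.88 ± 0.04), the adaptor above the p38 cascade, sta-2 (0.68 ± 0.06) and the kinase-like gene nipi-3 (0.40 ± 0.04), while snf-12 was lower (-0.47 ± 0.08). The caenacin (cnc) genes, an antimicrobial family related to nlp-29, had 7 of 11 members tested. In starved raga-1, 5 of the 7 were higher than in N2 and 1 was lower, where 27% of all tested genes were higher and 25.7% lower. Of the 7, cnc-6 and cnc-11 reached 10 counts in every library of a group only in starved raga-1. They were thus tested through the group where they are high, and a call there adds no support of its own. cnc-4 read 118, 91.5 and 105 CPM in starved raga-1 and 4.67, 3.71 and 4.99 CPM in starved N2 (log2 change 4.55, SE 0.15, edgeR adjusted p = 1.22e-17), and it fell on feeding in raga-1 (-3.54 ± 0.13). Of 7 epidermis markers measured, all tested, 1 was higher and 3 lower in starved raga-1 than in N2 (27% and 25.7% of all tested genes), with a summed level of 186 to 193 CPM against 210 to 212 CPM. The gene elt-3 is in both of these lists. On feeding in N2 their summed level was 293 to 308 CPM, where 5 of the 6 epidermal nlp genes fell. In rsks-1 both sums were above those of N2, the markers at 223 to 226 CPM starved and 345 to 354 CPM fed and nlp-29 to nlp-34 at 84.2 to 99.6 CPM starved and 50.5 to 61.9 CPM fed, against 24.2 to 35.2 CPM in fed N2. The part of the markers was not tested.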

How the data were processed

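Per the labels' protocols and the submitters' processing notes, reads of whole-larva RNA were aligned by the authors with STAR in a 2-pass procedure to a genome named WBcel269, and RSEM made the deposited expected counts per gene and per isoform; DESeq2 is also named, all versions not given in the sources used here. That build name could not be matched to WBcel235 (Ensembl annotation and RefSeq gene table), which supplied names, coordinates and transcript lengths; read strand and library preparation are not given either. Expected counts are estimates, so reads shared between genes may be split; all 1278 values of the members were whole numbers. They were rounded, and 14073 genes passed filterByExpr of edgeR 4.0.16 (minimum count 10). TMM set the library scaling, and the robust quasi-likelihood F test used a model of 6 group means over all 18 libraries (12 residual degrees of freedom), with Benjamini-Hochberg adjustment over all genes tested and a threshold of 0.05. The SE of a log2 change was obtained by dividing it by the root of its F statistic, which can be too small at few counts. There were 10 comparisons.

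The members and lists were chosen with earlier results of these data known. Named are nlp-24 to nlp-34, the 6 members with the highest mean CPM per kilobase, the 8 highest and 8 lowest on feeding in N2, up to 6 each way in other comparisons (past the threshold, at least 5 CPM in a compared group), members with a known role, and list genes among the 4 with the largest change. A few more are named after their values were seen. The names nlp-38, nlp-44 and nlp-54 had no row and were not analysed here. A group with 0 counts was set to a floor of 3 counts. Floors cover counting error only. Libraries of one group differed by more than sampling noise (mean chi-square per gene 2.12 to 5.99 over 18 pairs). Alternatives were relative log expression size factors, library totals alone, no filter, a replicate block, isoform sums, only the libraries compared, each library left out, and the DESeq2 1.42.0 Wald test. The script was tested on simulated data. Figures were drawn with matplotlib 3.10.9.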

Additional observations from a re-analysis of the deposited data

Results flagged for a closer look

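The feeding responses of 2 genotypes were compared by an interaction contrast of the edgeR fit, and the members below had an adjusted p below 0.05 for that difference. Values are log2 differences between responses. No explanation of them was tested.

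Between raga-1 and N2 the difference was positive for nlp-2 (2.47), nlp-66 (2.05), nlp-51 (1.61), nlp-82 (1.38), nlp-12 (1.36) and nlp-58 (1.30), which fell less in raga-1 or did not pass there. Among the epidermal genes and their neighbours it was positive for nlp-31 (1.13) and nlp-28 (0.86) and negative for nlp-33 (-2.29), nlp-30 (-2.04) and nlp-24 (-1.42). That of nlp-30 was lost without the first or the third fed N2 library (-1.77 and -1.86). nlp-33 and nlp-24 rose in N2 and fell in raga-1. With totals alone neither rise passed (0.58 and -0.00), and that of nlp-33 was also lost without the first fed N2 library (0.70).

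Between rsks-1 and N2 the difference was positive for nlp-31 (1.96), nlp-51 (1.32), nlp-34 (1.25), nlp-66 (1.21), nlp-82 (1.08), nlp-81 (1.04) and nlp-26 (1.00). That of nlp-34 was lost without the second fed N2 library (adjusted p = 0.0805), and that of nlp-26 without any one of 8 libraries (0.73 to 1.10).

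Between raga-1 and rsks-1 it was positive for nlp-28 (1.53), nlp-2 (1.49), nlp-66 (0.84), nlp-55 (0.63), nlp-50 (0.57) and nlp-9 (0.49). It was negative for nlp-30 (-1.96), nlp-33 (-1.72), nlp-24 (-1.48), nlp-31 (-0.84), nlp-26 (-0.79), nlp-29 (-0.31) and nlp-25 (-2.63). The difference of nlp-25, a gene of few counts that was tested through starved raga-1, was lost without any one of 5 libraries. It stood at -1.63 without the second fed rsks-1 library. Those of nlp-29 (8 libraries, -0.26 to -0.33) and nlp-26 (3 libraries, -0.66 to -0.74) were lost as well. That of nlp-29 also did not pass with relative log expression size factors (-0.27, adjusted p = 0.085), library totals alone (-0.22, 0.18), no filter (-0.31, 0.0584), the compared libraries only (-0.23, 0.127) or DESeq2 (-0.27, 0.119), and that of nlp-26 did not pass with DESeq2 (-0.72, 0.0608).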

How the results depend on the processing

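Of 280 values recomputed, with their direction and side of the threshold compared, 276 were unchanged with relative log expression size factors, 275 with no filter, 280 with isoform sums and 277 with DESeq2. Scaling by library totals alone left 256 unchanged, weakened 9, strengthened 11 and reversed 4. The reversed log2 changes were those on feeding of nlp-24 in N2 (-0.00), nlp-16 in N2 (-0.02) and nlp-40 in rsks-1 (-0.20), and raga-1 minus N2 in fed larvae of nlp-40 (0.17). With totals alone 1 member rose on feeding in N2 and 1 in raga-1, 11 were lower in starved and 0 in fed raga-1 than in N2; the cause was not tested. Without the filter 2 were lower in fed raga-1, and with relative log expression size factors 1 response was more negative in rsks-1 than in N2. With 1 library left out, members lower ranged from 0 to 1 for rsks-1 against N2 responses, 5 to 10 for raga-1 against rsks-1 responses and 1 to 2 for fed raga-1 against fed N2, while 54 to 55 fell on feeding in N2 and 38 to 45 were more positive in rsks-1 than in N2.

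Same-numbered libraries did not deviate together (correlations -0.0456 to 0.0334 over 45 pairs), so the numbers were not taken as pairs. With a replicate block 278 of 280 values kept their call, and the nlp-26 response in rsks-1 against N2 (0.99, adjusted p = 0.0738) and nlp-27 in fed rsks-1 minus N2 (0.97, adjusted p = 0.0522) did not pass. Without 1 library, calls for nlp-30 in starved rsks-1 minus N2 were lost in 4 cases (0.66 to 0.97). Few counts limit nlp-25, nlp-30 and nlp-32 and the 6 members that were not tested.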

Other observations

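A further 7 genes of the table carry an nlp name in the RefSeq gene table but another name in the list used for the rule: nlp-10, nlp-88, nlp-89, nlp-90, nlp-91, nlp-99 and nlp-119. They are not counted among the 71. nlp-99, the most abundant of them in N2, read 184 ± 7.35 CPM in starved and 94.4 ± 4.82 CPM in fed N2 (mean ± SD, n = 3 libraries, log2 change -0.96, SE 0.04, edgeR adjusted p = 7e-44). nlp-10 read 123 ± 3.54 CPM in starved and 42.1 ± 0.854 CPM in fed N2 (log2 change -1.54, SE 0.05, edgeR adjusted p = 1.63e-55). The fall of nlp-10 was smaller in raga-1 (-0.29 ± 0.04, ± SE) and in rsks-1 (-0.78 ± 0.05), and the responses differed from that of N2 by 1.25 ± 0.07 and 0.76 ± 0.07.

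Among the members too low to test, nlp-23 had 22 counts over the starved and 3 over the fed N2 libraries, and nlp-45 had 20 and 3. Both lie beside nlp-2 on X. Scaled for depth, starved exceeded fed by 5.24-fold for nlp-23 (95% counting interval 1.57 to 27.3) and by 4.76-fold for nlp-45 (1.41 to 25), intervals that cover counting error only.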
